A study of Mus musculus with 12 samples.

Results

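The T cell identity genes examined here are Cd3d, Cd3e, Cd3g, Cd4, Cd8a, Lef1, Tcf7, Foxp3, Il7r and Cd28, 10 of the 38349 genes in the table. They were chosen by name as genes that mark T cells, and each symbol had 1 entry. Bulk RNA sequencing of whole mouse lung gave 3 libraries in each of 4 groups. The tpMSC group was injured lung treated with tpMSC, the MSC group was injured lung treated with MSC, the ALI group was lung with acute lung injury from hypoxia and LPS, the endotoxin of Gram-negative bacteria, and the Control group was normal lung. All animals were wild type, their ages were not given, and the labels did not say what tpMSC stands for or how it differs from MSC. The labels did not state that replicates were separate animals, so the p-values rest on variation among these libraries, which could be technical.

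T cells recognise antigen through a receptor whose signal is carried by the CD3 subunits, and the co-receptors CD4 and CD8 and the co-stimulatory receptor CD28 add to that signal. TCF-1, the product of Tcf7, and LEF1 are related DNA-binding factors that maintain the naive T cell programme, FOXP3 directs regulatory T cells, and the IL-7 receptor keeps resting T cells alive. In the lung, T cells are a minority beside epithelial, endothelial and myeloid cells. In whole tissue, fewer T cells and less RNA per T cell cannot be told apart.

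The CD3 genes lie together on chromosome 9. In GRCm38, Cd3g (ENSMUSG00000002033, chr9:44969572-44980431, minus strand) and Cd3d (ENSMUSG00000032094, chr9:44981786-44987339, plus strand) are divergent neighbours whose starts lie 1355 bases apart, and Cd3e (ENSMUSG00000032093, chr9:44998740-45009627, minus strand) completes a cluster of 40056 bases. The 250 bases before the RefSeq start of these 3 genes and of Cd8a, all on GRCm38.p6, are shown as the genes of the receptor complex and a co-receptor, and because TCF-1 and LEF1, also measured here, bind a shared core sequence. Capitals mark that core, CTTTG on the strand shown or CAAAG for its reverse complement.
Cd3g (chr9:44980432-44980681, minus strand): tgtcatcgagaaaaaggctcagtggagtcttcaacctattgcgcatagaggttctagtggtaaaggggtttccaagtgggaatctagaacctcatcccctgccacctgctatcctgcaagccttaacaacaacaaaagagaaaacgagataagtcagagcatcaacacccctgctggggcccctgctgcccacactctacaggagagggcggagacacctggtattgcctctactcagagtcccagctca
Cd3d (chr9:44981536-44981785, plus strand): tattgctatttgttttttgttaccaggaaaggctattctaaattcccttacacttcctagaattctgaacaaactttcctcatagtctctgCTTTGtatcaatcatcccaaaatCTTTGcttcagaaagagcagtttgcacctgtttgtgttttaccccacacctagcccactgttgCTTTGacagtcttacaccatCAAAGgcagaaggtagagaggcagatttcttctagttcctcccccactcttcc
Cd3e (chr9:45009612-45009861, minus strand): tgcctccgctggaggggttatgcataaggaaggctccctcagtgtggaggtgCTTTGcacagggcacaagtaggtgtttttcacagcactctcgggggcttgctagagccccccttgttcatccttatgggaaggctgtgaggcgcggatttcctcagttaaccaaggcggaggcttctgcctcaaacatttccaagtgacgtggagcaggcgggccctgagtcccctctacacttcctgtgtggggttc
Cd8a (chr6:71373177-71373426, plus strand): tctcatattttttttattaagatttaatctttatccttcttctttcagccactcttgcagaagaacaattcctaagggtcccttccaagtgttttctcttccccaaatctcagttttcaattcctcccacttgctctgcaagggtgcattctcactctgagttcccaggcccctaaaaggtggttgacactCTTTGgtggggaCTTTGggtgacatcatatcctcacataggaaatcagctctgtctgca
The Cd3d window held 4 matches, the Cd8a window 2, the Cd3e window 1 and the Cd3g window 0. Of the windows not shown, those of Tcf7 and Il7r held 0, those of Lef1 held 1 to 3 each and those of Foxp3 held 4 and 1. Those of Il7r and Foxp3 and some of Lef1 and Tcf7 lie inside the gene positions given below. For the windows of Lef1 and Il7r and 1 of Tcf7, the bases after the RefSeq start were not found in a GENCODE transcript of the gene. Of 32851 RefSeq windows of this length, 48.6% held at least 1 match, so the letters are common, and a match is a description of the sequence and not a binding site. RefSeq windows matched 8 of the 10 genes.

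Libraries held 53083002 to 70209229 counts, and all 10 genes passed the filter on low counts that left 22915 genes. The tissue label was checked against 6 lung markers, none of which was at 0 in all libraries of a group, and their summed level ran from 22290 to 32570 FPKM in tpMSC lungs, 18690 to 25190 FPKM in MSC lungs, 11950 to 14560 FPKM in ALI lungs and 28520 to 35860 FPKM in Control lungs. Of 7 thymocyte markers, read because thymus tissue could be carried along, only Rag2 was at 0 in every library. Rag1 and Dntt were at 0 in all tpMSC libraries, Arpp21 in all MSC libraries and Ptcra in all ALI and Control libraries. The summed level was 5.33 to 7.17 FPKM in tpMSC, 3.79 to 8.37 in MSC, 3.01 to 3.88 in ALI and 7.51 to 8.24 in Control lungs. Cd1d1 made up most of it, and a part of thymus tissue in the values was not tested. The MSC libraries were spread widely: on a summary of 12 T cell markers, as mean log2 CPM minus the Control mean, MSC replicate 3 was at -0.13, replicate 1 at -0.48 and replicate 2 at -1.02. The corresponding values were -0.54 to -1.22 in tpMSC lungs, -0.63 to -0.67 in ALI lungs and -0.29 to 0.16 in Control lungs.

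In ALI lungs, Lef1, Cd8a, Tcf7 and Cd3e fell relative to Control and Foxp3 rose. Lef1, at 0.360-fold, had the largest change of the 10. In tpMSC lungs Il7r fell relative to ALI and to Control, and the CD3 genes, Cd8a, Tcf7 and Lef1 fell relative to Control. In MSC lungs Lef1 and Tcf7 fell relative to Control. The plot of levels by library shows the values behind these statements.

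**Figure D1:**
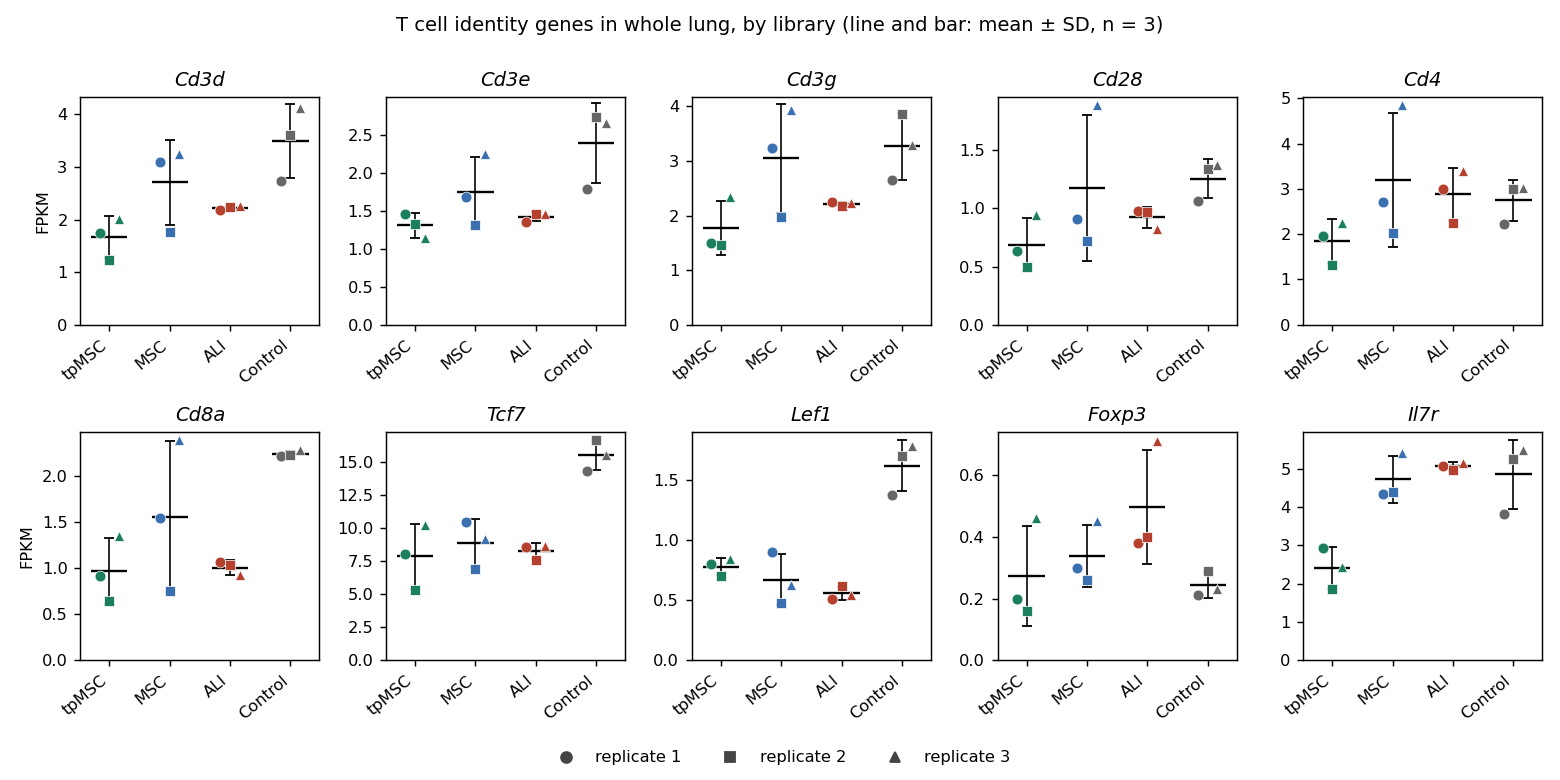
FPKM of each T cell identity gene (y axis, from 0, scale differing between panels) in tpMSC, MSC, ALI and Control lungs (x axis); points are libraries, and the line and bar are the mean ± SD of 3 libraries. Control libraries of Tcf7 and Lef1 lie above every other library, and tpMSC libraries of Il7r lie below every other library.

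Cd3d encodes the CD3 delta chain of the receptor complex. It was at 1.75, 1.24 and 2.02 FPKM in tpMSC lungs, 3.10, 1.77 and 3.25 FPKM in MSC lungs, 2.19, 2.23 and 2.26 FPKM in ALI lungs and 2.73, 3.61 and 4.12 FPKM in Control lungs. The tpMSC libraries were the lowest group and overlapped neither ALI nor Control, while MSC libraries overlapped every group. Relative to Control, the log2 fold change was -1.03 in tpMSC lungs (SE 0.25, adjusted p = 0.0163), which was a fall, and -0.58 in ALI lungs (SE 0.25, adjusted p = 0.0808), which missed the threshold although the libraries did not overlap. Relative to ALI, it was -0.44 in tpMSC lungs (SE 0.25, adjusted p = 0.23).

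Cd3e encodes the CD3 epsilon chain, which pairs with the delta and gamma chains. It was at 1.46, 1.32 and 1.14 FPKM in tpMSC lungs, 1.68, 1.31 and 2.24 FPKM in MSC lungs, 1.35, 1.46 and 1.46 FPKM in ALI lungs and 1.79, 2.73 and 2.65 FPKM in Control lungs. All tpMSC and ALI libraries lay below all Control libraries, and tpMSC and ALI overlapped each other. Cd3e fell relative to Control by 0.83 on the log2 scale in tpMSC lungs (SE 0.21, adjusted p = 0.018) and by 0.68 in ALI lungs (SE 0.21, adjusted p = 0.0192).

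Cd3g encodes the CD3 gamma chain. Its levels were 1.5, 1.46 and 2.34 FPKM in tpMSC lungs, 3.24, 1.97 and 3.93 FPKM in MSC lungs, 2.25, 2.18 and 2.23 FPKM in ALI lungs and 2.65, 3.87 and 3.29 FPKM in Control lungs. The ALI libraries were almost equal, lay below every Control library and overlapped the tpMSC libraries, of which replicate 3 was above them. Cd3g fell relative to Control by 0.85 on the log2 scale in tpMSC lungs (SE 0.25, adjusted p = 0.0366), and the change in ALI lungs was -0.50 (SE 0.25, adjusted p = 0.13). Across the 12 libraries, log2 CPM of Cd3d and Cd3g correlated at Pearson r = 0.927, of Cd3d and Cd3e at 0.838 and of Cd3e and Cd3g at 0.769; these points share the group differences and are a description.

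By a fixed rule, the 10 genes outside the set whose log2 CPM followed Cd3e most closely over the 12 libraries were Rad9b, Rnf123, Zfhx2, Satb1, Zdhhc20, Trbc2, Rai1, Trbv13-2, Herc3 and Ralgps2, with Pearson r between 0.882 and 0.911. Trbc2 is a constant gene and Trbv13-2 a variable segment of the T cell receptor beta chain, and Satb1 encodes a chromatin organiser of T cells. The other genes named, with Rad9b, Rnf123 and Zfhx2 highest in r, were on none of the marker lists read here. These correlations also share the group differences and are a description.

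Cd28 (ENSMUSG00000026012, chr1:60716800-60773359, plus strand) encodes the main co-stimulatory receptor of T cells. It was at 0.63, 0.50 and 0.94 FPKM in tpMSC lungs, 0.91, 0.72 and 1.89 FPKM in MSC lungs, 0.98, 0.97 and 0.82 FPKM in ALI lungs and 1.06, 1.34 and 1.37 FPKM in Control lungs. The tpMSC and ALI libraries lay below every Control library, and MSC replicate 3 was the highest library of all. Cd28 passed the test in none of the 6 comparisons: its log2 fold change relative to Control was -0.81 in tpMSC lungs (SE 0.33, adjusted p = 0.112) and -0.38 in ALI lungs (SE 0.32, adjusted p = 0.388). DESeq2, limma-voom with library weights and the fit of those groups alone each called the fall in tpMSC lungs, with the adjusted p over all alternatives between 0.00862 and 0.292.

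Cd4 (ENSMUSG00000023274, chr6:124864692-124888221, minus strand) encodes the co-receptor of helper and regulatory T cells, which binds MHC class II. Its levels were 1.97, 1.31 and 2.25 FPKM in tpMSC lungs, 2.70, 2.02 and 4.86 FPKM in MSC lungs, 2.99, 2.25 and 3.39 FPKM in ALI lungs and 2.23, 2.99 and 3.02 FPKM in Control lungs. All pairs of groups overlapped, tpMSC and ALI only in sharing the value 2.25 FPKM, and MSC replicate 3 was the highest library. Cd4 was not called in any comparison; its log2 fold change was 0.13 in ALI against Control (SE 0.31, adjusted p = 0.771), -0.67 in tpMSC against ALI (SE 0.31, adjusted p = 0.145) and -0.54 in tpMSC against Control (SE 0.31, adjusted p = 0.273).

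Cd8a (ENSMUSG00000053977, chr6:71373427-71379173, plus strand) encodes the alpha chain of the co-receptor of cytotoxic T cells, which binds MHC class I, and is also expressed by a class of dendritic cells. It was at 0.91, 0.64 and 1.35 FPKM in tpMSC lungs, 1.54, 0.75 and 2.39 FPKM in MSC lungs, 1.07, 1.03 and 0.92 FPKM in ALI lungs and 2.22, 2.23 and 2.28 FPKM in Control lungs. Control libraries were close together, every tpMSC and ALI library was below them, and MSC replicate 3 was above them. Cd8a fell relative to Control by 1.17 on the log2 scale in tpMSC lungs (SE 0.35, adjusted p = 0.0405) and by 1.09 in ALI lungs (SE 0.35, adjusted p = 0.0266). The list of 6 dendritic cell markers had 2 falls and 1 rise in ALI against Control, beside 19.6% and 20.1% of all genes. The share called was thus near the 39.6% over all genes. Clec9a, a receptor of dendritic cells, fell, at 5.25 ± 0.0493 FPKM in ALI lungs against 15.5 ± 1.55 FPKM in Control lungs (SD, n = 3). Cd209a also fell (log2 fold change -2.43), Flt3 rose (1.17), and 3 markers were not called. Clec9a also fell against Control in tpMSC lungs (log2 fold change -0.88) and in MSC lungs (-0.98). It was the only fall of the list in tpMSC lungs, beside 6.89% of all genes, and Xcr1 (-0.73) was not called there. In MSC lungs Cd209a (-2.57) fell as well, beside 8.06% of all genes with a fall. The summed level of the 6 markers was 12.7 to 16.6 FPKM in tpMSC lungs, 9.98 to 17.7 FPKM in MSC lungs, 10.7 to 12.7 FPKM in ALI lungs and 23.2 to 25.5 FPKM in Control lungs, none was at 0 in all libraries of a group, and their part in the Cd8a values was not tested. In Control lungs Clec9a made up most of the summed level.

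Its partner chain Cd8b1 was at 1.27 ± 0.557 FPKM in tpMSC lungs, 1.71 ± 0.656 FPKM in MSC lungs, 1.58 ± 0.236 FPKM in ALI lungs and 3.69 ± 0.215 FPKM in Control lungs (SD, n = 3). Cd8b1 fell relative to Control in tpMSC lungs (log2 fold change -1.49, SE 0.33, adjusted p = 0.00989), in MSC lungs (-1.09, SE 0.32, adjusted p = 0.0336) and in ALI lungs (-1.16, SE 0.32, adjusted p = 0.0123). As both co-receptors were measured in each library, Cd4 was also set against Cd8a: the log2 CPM of Cd4 minus that of Cd8a averaged 1.10 ± 0.19 in tpMSC lungs, 1.23 ± 0.32 in MSC lungs, 1.63 ± 0.38 in ALI lungs and 0.42 ± 0.23 in Control lungs (SD, n = 3). In each of the other groups all libraries lay above the highest Control library on this difference. The tpMSC and ALI libraries were barely apart, with the highest tpMSC library at 1.255 and the lowest ALI library at 1.261.

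Tcf7 (ENSMUSG00000000782, chr11:52252371-52283014, minus strand) encodes TCF-1 and is also used by natural killer cells and other innate lymphocytes. It had the highest FPKM of the 10 genes in every group, at 8.04, 5.30 and 10.22 FPKM in tpMSC lungs, 10.45, 6.92 and 9.19 FPKM in MSC lungs, 8.56, 7.58 and 8.65 FPKM in ALI lungs and 14.33, 16.66 and 15.53 FPKM in Control lungs. Every library of the other 3 groups was below the lowest Control library, and those groups overlapped one another. Tcf7 fell relative to Control by 0.94 on the log2 scale in tpMSC lungs (SE 0.21, adjusted p = 0.0115), by 0.80 in MSC lungs (SE 0.21, adjusted p = 0.0203) and by 0.85 in ALI lungs (SE 0.21, adjusted p = 0.0067).

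Lef1 (ENSMUSG00000027985, chr3:131110471-131224356, plus strand) encodes the related factor LEF1. It was at 0.80, 0.70 and 0.84 FPKM in tpMSC lungs, 0.90, 0.48 and 0.63 FPKM in MSC lungs, 0.51, 0.62 and 0.54 FPKM in ALI lungs and 1.38, 1.70 and 1.78 FPKM in Control lungs. Control was apart from all other groups, and Lef1 was higher in every tpMSC library than in any ALI library. Lef1 fell relative to Control by 1.02 on the log2 scale in tpMSC lungs (SE 0.20, adjusted p = 0.00568), by 1.26 in MSC lungs (SE 0.20, adjusted p = 0.00138) and by 1.47 in ALI lungs (SE 0.20, adjusted p = 0.000108). The difference of 0.45 between tpMSC and ALI lungs (SE 0.20, adjusted p = 0.129) did not pass the test.

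A list of 9 genes of naive and recirculating T cells gave the wider setting of these factors. In ALI against Control, 6 fell, 1 rose and 2 were not called, beside 19.6% of all genes tested with a fall and 20.1% with a rise, with falls of Rapgef4 (log2 fold change -1.20, adjusted p = 6.085e-05), Satb1 (-0.65), Ccr7 (-1.03), which encodes the receptor that guides naive T cells to lymph nodes, and Klf2 (-0.48), a factor of lymphocyte recirculation that endothelial cells also express. In MSC against Control, 6 fell and 0 rose, beside 8.06% and 10.6% of all genes. In tpMSC against Control, 6 fell and 0 rose, beside 6.89% and 9.19% of all genes, among them Satb1 (-0.89), Ccr7 (-1.48), Bach2 (-0.73) and Rapgef4 (-0.66). In tpMSC against ALI, Bach2 (-0.41), which encodes a repressor that restrains lymphocyte differentiation, fell and Rapgef4 (0.54) rose. Of 5 endothelial markers, 5 fell in ALI against Control, 5 in MSC against Control and 2 in tpMSC against Control; their part in these values was not tested.

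Because LEF1 and TCF-1 act at targets of Wnt signalling, 7 such targets were also read, all of which cells other than T cells can express. In ALI against Control 4 fell and 1 rose, beside 19.6% and 20.1% of all genes, among them Nkd1 (log2 fold change -0.64), Notum (-2.28) and Znrf3 (-0.78) with falls and Sp5 (1.21) with a rise. In MSC against ALI 3 rose and 1 fell, beside 5.04% and 5.22% of all genes. In tpMSC against ALI 4 rose and 1 fell, beside 11.8% and 11.5% of all genes, with rises of Nkd1 (0.53), Notum (1.43) and Axin2 (0.54) and a fall of Sp5 (-0.80).

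Foxp3 (ENSMUSG00000039521, chrX:7573644-7595245, plus strand) encodes the lineage factor of regulatory T cells and had the lowest levels of the set, with 53 to 230 counts a library. It was at 0.20, 0.16 and 0.46 FPKM in tpMSC lungs, 0.30, 0.26 and 0.45 FPKM in MSC lungs, 0.38, 0.40 and 0.71 FPKM in ALI lungs and 0.21, 0.29 and 0.23 FPKM in Control lungs. All ALI libraries lay above all Control libraries, and the tpMSC and MSC libraries overlapped both. Foxp3 rose in ALI lungs relative to Control (log2 fold change 1.08, SE 0.40, adjusted p = 0.0478), while the differences of -0.89 between tpMSC and ALI lungs (SE 0.40, adjusted p = 0.134) and -0.60 between MSC and ALI lungs (SE 0.40, adjusted p = 0.394) did not pass the test. The rise was called in 6 of 15 alternatives, and the adjusted p reached 0.214.

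Foxp3 exons share bases with other annotated genes, and the strand setting of the counting was not given in the sources used here. Of 4577 exon bases, Foxp3 shared 590 (12.9%) with Ccdc22, 373 with Gm36995 and 266 with Ppp1r3f, all on the opposite strand, and 853 (18.6%) with Flicr on the same strand. Their highest count in a library was 1400 for Ccdc22, 728 for Gm36995, 317 for Ppp1r3f and 61 for Flicr, beside 53 to 230 for Foxp3. None of these 4 genes was called in ALI against Control: Ccdc22 had a log2 fold change of 0.19 (adjusted p = 0.299), Gm36995 of -0.52 (adjusted p = 0.208), Ppp1r3f of -0.16 (adjusted p = 0.615) and Flicr of -0.76 (adjusted p = 0.531). The Foxp3 level is therefore uncertain where reads fall in shared bases.

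Of 10 further genes associated with regulatory T cells, 5 rose and 0 fell in ALI against Control, beside 20.1% of all genes with a rise. The 4 with the smallest p were Lrrc32 (log2 fold change 0.59, adjusted p = 0.00013), which endothelial cells and platelets also use, Ctla4 (2.35, adjusted p = 0.0128), an inhibitory receptor, Il2ra (0.99, adjusted p = 0.0371), the high-affinity IL-2 receptor chain, and Ikzf4 (0.63, adjusted p = 0.0484). In MSC against Control 4 rose, beside 10.6% of all genes, namely Lrrc32 (0.46), Tigit (2.43), Ctla4 (2.01) and Il2ra (1.08), and in tpMSC against Control 1 rose, Lrrc32 (0.53), a share near the 9.19% of all genes. The median log2 fold change of the list was 0.61 in ALI against Control, against -0.02 over all genes tested. In MSC lungs Tigit was at 2.10 ± 2.32 FPKM (SD, n = 3), so its SD was larger than its mean.

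Il7r (ENSMUSG00000003882, chr15:9505788-9530176, minus strand) encodes the alpha chain of the IL-7 receptor, which naive and memory T cells and innate lymphocytes carry and which is also part of the receptor for TSLP. It was at 2.94, 1.86 and 2.43 FPKM in tpMSC lungs, 4.35, 4.40 and 5.42 FPKM in MSC lungs, 5.08, 4.96 and 5.16 FPKM in ALI lungs and 3.81, 5.25 and 5.5 FPKM in Control lungs. Every tpMSC library was below every library of the other groups, which overlapped one another. Il7r fell in tpMSC lungs by 1.10 on the log2 scale relative to ALI (SE 0.17, adjusted p = 0.000684) and by 0.98 relative to Control (SE 0.17, adjusted p = 0.00311). Relative to MSC the difference was -0.95 (SE 0.17, adjusted p = 0.0778), which missed the threshold in edgeR. DESeq2 called it, at an adjusted p of 3.448e-05, and edgeR called it without MSC replicate 1 or tpMSC replicate 3. The adjusted p over all alternatives ran up to 0.553. In ALI against Control the log2 fold change of Il7r was 0.12 (SE 0.17, adjusted p = 0.597).

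The other genes of the IL-7, IL-2 and IL-15 axis numbered 10. In tpMSC against ALI, 2 fell and 2 rose, beside 11.5% and 11.8% of all genes: Jak3 (log2 fold change -0.65), the kinase of the common gamma chain, and Crlf2 (-0.46), the TSLP receptor, fell, and Il15 (0.64) and Tslp (0.63), both ligands, rose. In ALI against Control 4 rose and 2 fell, beside 20.1% and 19.6% of all genes: Jak3 (1.03) and Crlf2 (0.89) were among the rises, and Tslp (-1.32) and Il15 (-0.70) were the falls.

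**Figure D2:**
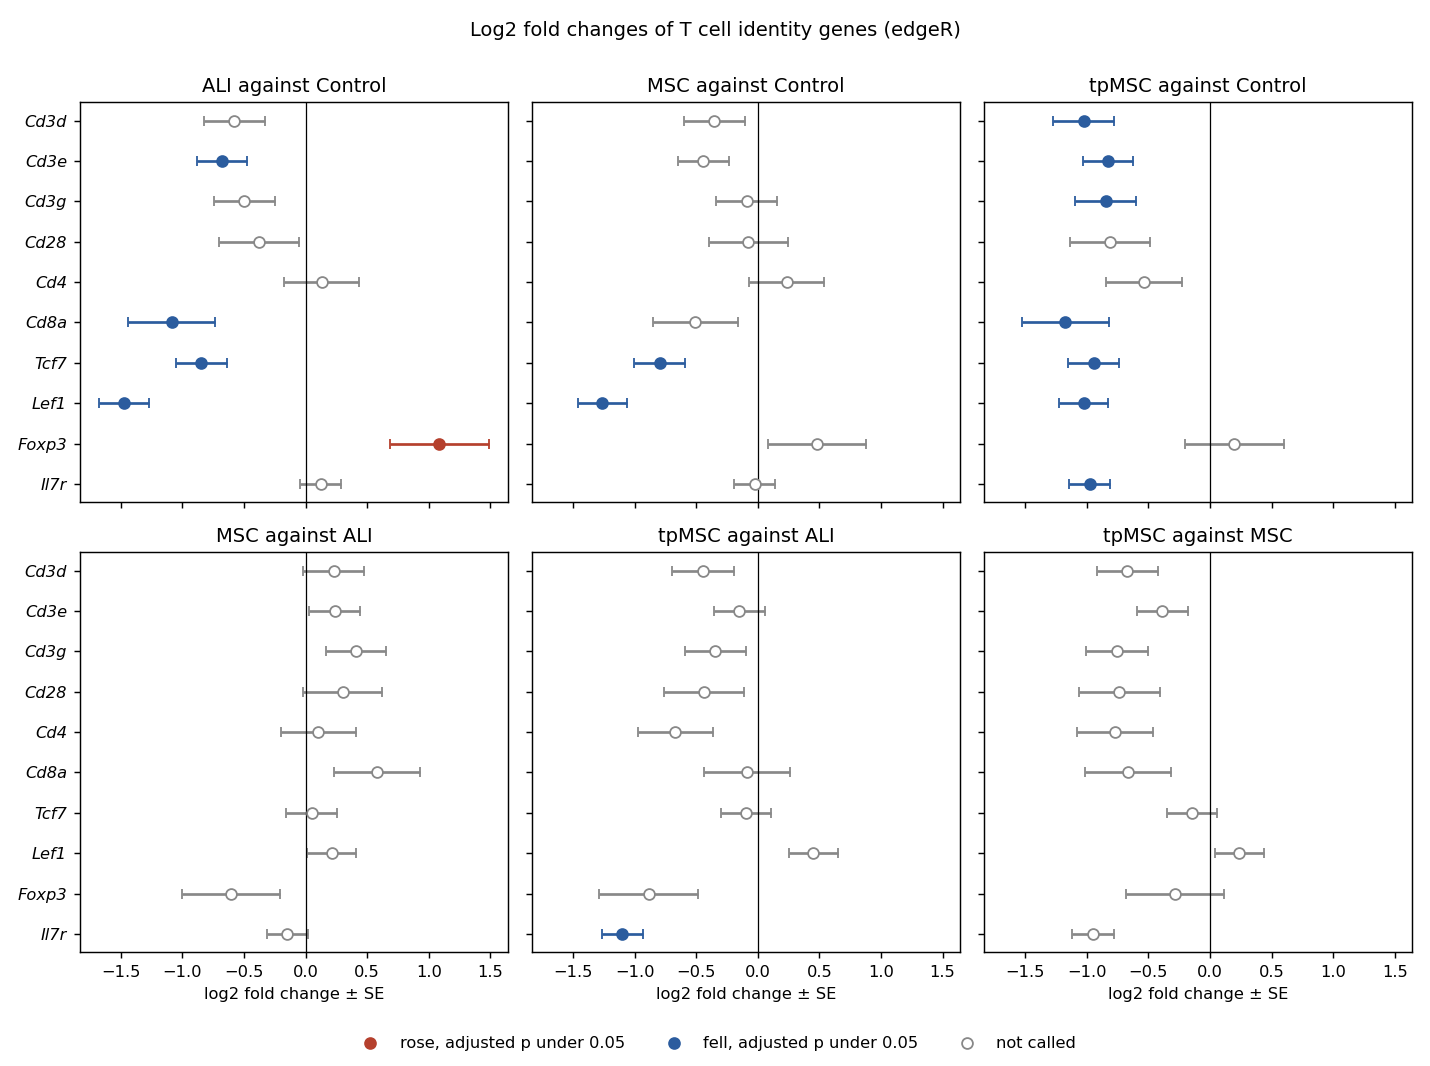
Log2 fold change ± SE (x axis) of each T cell identity gene (rows) in 6 comparisons (panels), from edgeR on 3 libraries a group; filled red and blue points rose and fell at an adjusted p under 0.05, and open points were not called. Lef1 and Tcf7 are filled in all 3 panels against Control, and Il7r is filled in tpMSC against Control and in tpMSC against ALI.

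Counted over the set, 5 of the 10 genes were called in ALI against Control, 4 with a fall and 1 with a rise, beside 39.6% of all genes tested, 19.6% with a fall and 20.1% with a rise. The share of the set was thus near that of all genes. The libraries did not overlap for 7 genes that were lower in ALI and 1 that was higher, beside 31.8% and 23.8% of all genes, and the median log2 fold change was -0.54 against -0.02 over all genes. The count was 7 with limma-voom with library weights and with the fit of these 2 groups alone, which each added falls of Cd3d and Cd3g. Leaving out 1 library cut the calls over all genes from 9083 to between 7440 and 8211. In the set it cut the count to 3 without Control replicate 1 or any 1 ALI replicate and to 2 without Control replicate 2 or 3. The Cd8a call was lost without any 1 of these 6 libraries (adjusted p up to 0.0826), the Cd3e call without Control replicate 2 or 3 or ALI replicate 1 (up to 0.0787), and the Foxp3 call without any Control library or ALI replicate 2 or 3 (up to 0.214).

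The comparison of MSC with ALI asks whether MSC treatment moved these genes in injured lung. None of the 10 genes was called, beside 10.3% of all genes tested. In edgeR the count was 0 at an unadjusted p under 0.05 and 0 with DESeq2, and for all 10 genes the libraries overlapped, while 26.9% of all genes did not overlap. The log2 fold changes ran from -0.60 for Foxp3 to 0.58 for Cd8a (SE 0.35), with a median of 0.22 against 0.02 over all genes, and 2 genes were below 0. Without MSC replicate 2, the lowest MSC library for most of these genes, 1 gene was called, a rise of Cd8a (log2 fold change 0.91, adjusted p = 0.0445).

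The same question for tpMSC gave 1 call of 10 against ALI, the fall of Il7r, beside 23.2% of all genes tested and 11.5% with a fall. The log2 fold change was below 0 for 9 of the 10 genes, with a median of -0.39 against 0.01 over all genes, but libraries did not overlap for only 2 lower genes, Cd3d and Il7r, and 1 higher gene, Lef1, beside 18.3% and 21.2% of all genes. Without tpMSC replicate 3, Foxp3 was called as well. Set against MSC directly, tpMSC gave 0 calls in edgeR, beside 0.0305% of all genes tested, and 1 in DESeq2, Il7r. At an unadjusted p under 0.05 there were 5 genes, Cd3d, Cd3g, Cd4, Il7r and Cd28, all lower in tpMSC, and the median log2 fold change was -0.67. Libraries did not overlap for 1 lower gene, Il7r, beside 8.1% of all genes.

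Relative to Control, 7 of the 10 genes fell in tpMSC lungs, namely Il7r, Lef1, Tcf7, Cd3d, Cd3e, Cd3g and Cd8a, and 0 rose, beside 16.1% of all genes called, 6.89% with a fall and 9.19% with a rise. Libraries did not overlap for 8 lower genes, beside 21.7% of all genes, and the median log2 fold change was -0.90 against -0.01 over all genes. In MSC lungs 2 of the 10 genes fell, Lef1 and Tcf7, beside 18.6% of all genes called and 8.06% with a fall, and these 2 were also the only ones whose MSC and Control libraries did not overlap, beside 19.8% of all genes lower without overlap. These comparisons and that of ALI share the Control libraries. The tpMSC count was 3 without Control replicate 2 or 3 and 4 without tpMSC replicate 2. The Cd8a call was lost without any 1 Control library or tpMSC replicate 1 or 2 and with no filter on low counts (adjusted p up to 0.127), and the calls of Cd3d (up to 0.0619), Cd3e (up to 0.0779) and Cd3g (up to 0.136) were each lost without Control replicate 2 or 3 and without 1 or more tpMSC libraries. The MSC count was 1 without Control replicate 2, Control replicate 3 or MSC replicate 2, when Tcf7 was lost (adjusted p up to 0.0707).

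To describe the set beside the CD3 genes, each gene's log2 CPM was set against the mean log2 CPM of Cd3d, Cd3e and Cd3g in the same library. These differences are a description with no test. Of 336 alternative values, 4 moved by more than the spread between replicates. Most alternatives left out 1 of 3 libraries, which cannot move a group mean that far, so this count does not measure stability. In whole lung, other cells can also express genes of the set, Tcf7, Il7r and Cd8a among them, so no difference need lie within T cells. The cells behind each value, those of Lef1 and Cd4 included, were not tested. Foxp3 relative to CD3 averaged -1.96 ± 0.60 in tpMSC lungs, -2.15 ± 0.22 in MSC lungs, -1.33 ± 0.48 in ALI lungs and -2.91 ± 0.18 in Control lungs (SD, n = 3). All libraries of the other 3 groups lay above all Control libraries on this scale. Foxp3 itself was not called against Control in tpMSC (log2 fold change 0.20) or MSC lungs (0.48), where its libraries overlapped Control. The CD3 genes fell in tpMSC lungs. Il7r relative to CD3 averaged 1.29 ± 0.25 in tpMSC lungs, 1.68 ± 0.35 in MSC lungs, 2.08 ± 0.03 in ALI lungs and 1.37 ± 0.05 in Control lungs, the ALI and MSC libraries lay above those of Control, and the tpMSC libraries overlapped those of Control and lay below those of ALI.

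Lef1 relative to CD3 averaged 0.60 ± 0.07 in tpMSC lungs, -0.25 ± 0.39 in MSC lungs, -0.18 ± 0.14 in ALI lungs and 0.72 ± 0.11 in Control lungs (SD, n = 3). The tpMSC libraries overlapped Control and lay above all MSC and ALI libraries, which lay below Control. Lef1 itself fell in tpMSC lungs relative to Control (log2 fold change -1.02), as did Cd3d (-1.03), Cd3e (-0.83) and Cd3g (-0.85). Tcf7 relative to CD3 averaged 2.34 ± 0.29 in tpMSC lungs, 1.95 ± 0.26 in MSC lungs, 2.16 ± 0.11 in ALI lungs and 2.44 ± 0.20 in Control lungs, with tpMSC overlapping Control and MSC and ALI below Control. Cd4 relative to CD3 averaged 0.69 ± 0.22 in tpMSC lungs, 0.82 ± 0.30 in MSC lungs, 1.04 ± 0.30 in ALI lungs and 0.35 ± 0.05 in Control lungs (SD, n = 3), and all libraries of the other 3 groups lay above Control. Cd8a relative to CD3 averaged -0.41 ± 0.33 in tpMSC lungs, -0.41 ± 0.39 in MSC lungs, -0.59 ± 0.14 in ALI lungs and -0.07 ± 0.27 in Control lungs, and only the ALI libraries lay below all Control libraries. Cd28 relative to CD3 stayed between -0.17 and 0.02 in the 4 group means, and all groups overlapped.

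**Figure D3:**
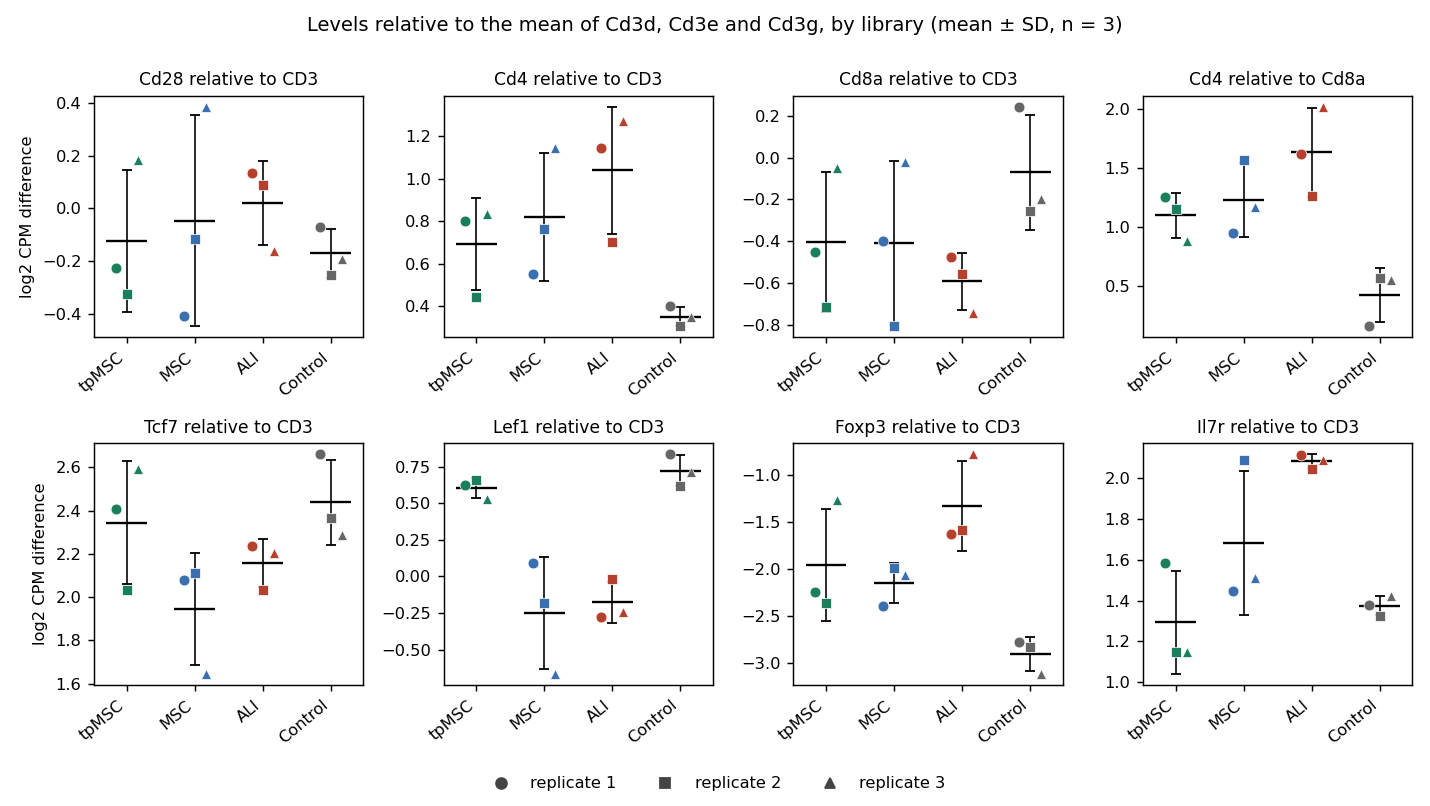
Log2 CPM of each gene minus the mean log2 CPM of Cd3d, Cd3e and Cd3g in the same library (y axis, scale differing between panels), and of Cd4 minus Cd8a, in tpMSC, MSC, ALI and Control lungs (x axis); points are libraries, and the line and bar are the mean ± SD of 3. Relative to CD3, Lef1 is near its Control level in tpMSC lungs and lower in MSC and ALI lungs. On this scale Foxp3 is above Control in all 3 other groups. The CD3 genes themselves fell in tpMSC against Control.

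Signalling genes that act next to the CD3 chains were read from a wider list. Of 15 genes of proximal T cell receptor signalling, 4 fell and 1 rose in ALI against Control, beside 19.6% and 20.1% of all genes, and 5 fell and 0 rose in tpMSC against Control, beside 6.89% and 9.19%. The share called in ALI lungs was thus no higher than the 39.6% over all genes. In ALI lungs Cd2, an adhesion receptor that natural killer cells also carry, was at 3.78 ± 0.463 FPKM against 13.3 ± 0.925 FPKM in Control lungs (SD, n = 3; log2 fold change -1.74, adjusted p = 1.018e-06). Lcp2, an adaptor that myeloid cells also use, was at 18.9 ± 0.772 FPKM in ALI lungs against 4.01 ± 0.0851 FPKM in Control lungs (log2 fold change 2.30). Cd2 rose in tpMSC against ALI (log2 fold change 0.85) and in MSC against ALI (0.44), and none of the CD3 genes was called there; Lcp2 fell in tpMSC against ALI (-1.39). Of 4 measured T cell receptor constant genes, Trbc1 (-0.98) and Trbc2 (-1.03) fell in tpMSC against Control, Trbc1 (-0.66) fell in MSC against Control, and Trbc1 (-0.64) and Trbc2 (-0.78) fell in ALI against Control.

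Among 13 co-stimulatory and checkpoint genes, 10 rose and 1 fell in ALI against Control, beside 20.1% and 19.6% of all genes, and Cd28 was not called. Havcr2 (log2 fold change 1.59), Tnfrsf9 (6.19), Cd80 (2.31), which encodes a ligand of CD28, and Pdcd1 (3.62), which encodes PD-1, were the 4 with the smallest p, and myeloid cells can express all of them. In tpMSC against ALI 6 fell and 0 rose, beside 11.5% and 11.8% of all genes, with Havcr2 (-1.36), Icosl (-0.75), Tnfrsf9 (-2.56) and Btla (-1.32), an inhibitory receptor of T and B cells, having the smallest p. In MSC against ALI 1 fell, Havcr2 (-0.61), beside 5.22% of all genes. In tpMSC against Control 3 rose and 2 fell, beside 9.19% and 6.89% of all genes: Btla (-1.79) and Cd27 (-1.01) fell, and Tnfrsf9 (3.63) and Cd80 (1.34) were among the rises.

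Markers of other cells moved with these groups. Of 6 neutrophil markers, 6 rose in ALI against Control, beside 20.1% of all genes, 6 fell in tpMSC against ALI, beside 11.5%, and 6 fell in MSC against ALI, beside 5.22%. Their summed level was 446.4 to 600.9 FPKM in tpMSC lungs, 455.0 to 969.6 FPKM in MSC lungs, 3675 to 4163 FPKM in ALI lungs and 139.9 to 232.4 FPKM in Control lungs. Of 6 measured natural killer cell markers, 5 fell in ALI against Control, beside 19.6% of all genes, and 1 rose in tpMSC against ALI, beside 11.8%, and their summed level was 36.6 to 56.2 FPKM in tpMSC lungs, 29.2 to 56.5 FPKM in MSC lungs, 13.7 to 33.7 FPKM in ALI lungs and 47.4 to 75.8 FPKM in Control lungs. None of these markers was at 0 in all libraries of a group, and their part in the values of the T cell genes was not tested.

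Markers of B cells, the other large group of lymphocytes, were also read. Of 7 markers, 7 fell in tpMSC against ALI, beside 11.5% of all genes, and 7 fell in tpMSC against Control, beside 6.89%, while 0 were called in ALI against Control, beside 39.6%. The mean log2 CPM of the list, relative to the Control mean, was -2.04, -2.04 and -1.58 in tpMSC lungs, -0.42, -1.53 and -0.25 in MSC lungs, -0.05, -0.68 and -0.22 in ALI lungs and -0.46, 0.42 and 0.05 in Control lungs. MSC replicate 2 was the lowest MSC library on both the B cell and the T cell list. The difference between the lists was not tested.

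**Figure D4:**
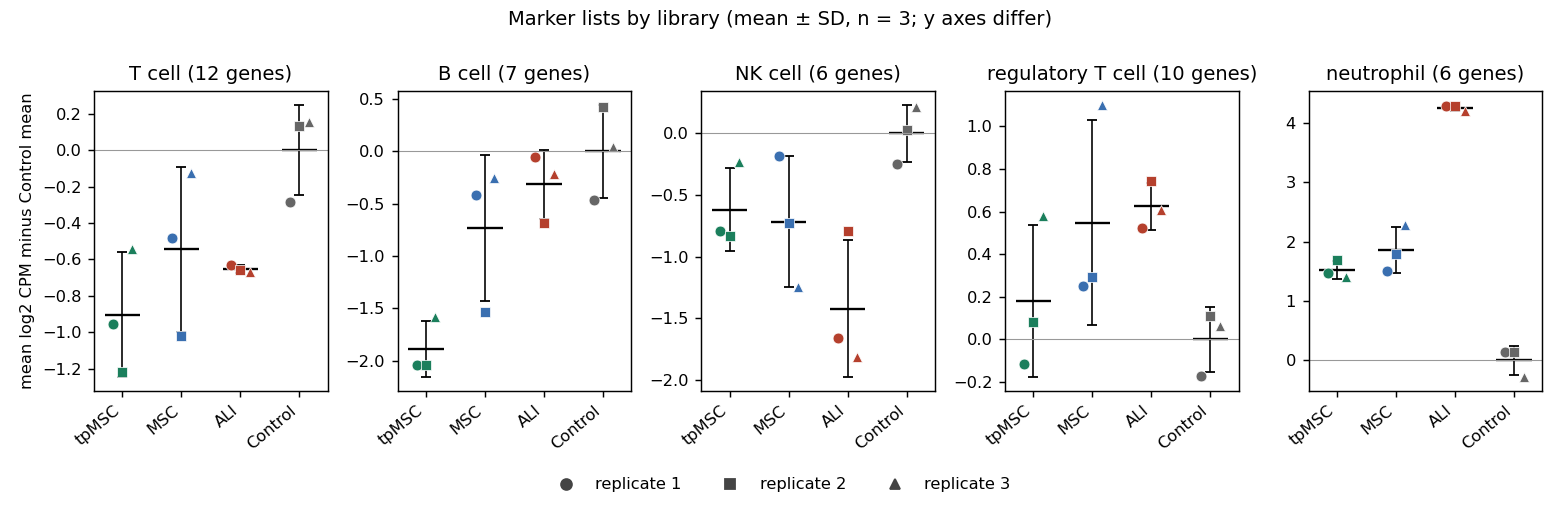
Mean log2 CPM of 5 marker lists minus the Control mean (y axis, scale differing between panels) in tpMSC, MSC, ALI and Control lungs (x axis); points are libraries, and the line and bar are the mean ± SD of 3. The tpMSC libraries are lowest on the B cell list, and the ALI libraries are highest on the neutrophil list.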

How the data were processed

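The authors deposited, per the file headers, 1 table of 38349 genes that gives each of 12 libraries a raw count and an FPKM (fragments scaled by gene length and library size). Per the labels' protocols, oligo(dT)-selected RNA was made into dUTP-marked libraries and sequenced as read pairs. The submitters' processing notes list HISAT2 2.0.4, StringTie 1.3.4d and cutadapt 1.9, with edgeR and DESeq2, on GRCm38. How reads were counted, with which strand setting and annotation, is not given in the sources used here. Sample titles gave the groups and replicate numbers.

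Counts were tested with the edgeR 4.0.16 quasi-likelihood F test (R 4.3.3) after filterByExpr and TMM scaling, with 1 mean per group over all 12 libraries. Genes were called at a Benjamini-Hochberg adjusted p under 0.05 over 22915 genes, and "rose" and "fell" are used of called genes. Percentages beside counts are over these genes. Libraries of 2 groups were said not to overlap on deposited FPKM. Log2 CPM used a prior count of 2. Alternatives used limma 3.58.1, DESeq2 1.42.0, other scalings and filters, and single libraries left out. The processing was tested on simulated counts. Replicate numbers were not shown to pair libraries: over 18 pairs group-centred values correlated at -0.11 to 0.10, and 4 of 12 libraries were most like one of the same number. With 3 libraries per group, these values cannot show that no animal, day or batch was shared.

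The members and the 21 other lists were chosen with earlier results of these data known. All 10 members are described; from each other list, at most 4 genes with the smallest p per comparison are named, and the genes most like Cd3e are the 10 with the highest correlation. Printed positions come from GENCODE M21 on GRCm38 by Ensembl ID, because the table's positions differed from them for all members. Promoter sequences are from RefSeq on GRCm38.p6. Across the lists, 8 listed symbols had no entry under that name in the table. The values of a gene on the naive T cell list are not reported here.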

Additional observations from a re-analysis of the deposited data

How the results depend on the processing

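Of 15 calls of T cell identity genes in the 6 comparisons, 7 held in all of their 15 alternatives: Lef1 against Control in ALI, MSC and tpMSC lungs, Tcf7 against Control in ALI and tpMSC lungs, and Il7r in tpMSC lungs against ALI and against Control. With 1 library left out, the number called ran from 2 to 3 in ALI against Control, 0 to 1 in MSC against ALI, 1 to 2 in tpMSC against ALI, 0 to 1 in tpMSC against MSC, 1 to 3 in MSC against Control and 3 to 6 in tpMSC against Control. In tpMSC against ALI, limma-voom with library weights called 3, and in tpMSC against MSC, DESeq2 called 1. The replicate block moved the count in tpMSC against ALI to 2, adding Cd4, although the numbers were not shown to pair libraries.

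Changes of sign occurred only for genes that were not called. With library weights, the log2 fold change was -0.0373 for Cd4 in MSC against ALI and -0.28 for Foxp3 in tpMSC against Control. With 1 library left out, it ran from -0.23 to 0.55 for Cd28, -0.34 to 0.35 for Cd4, -0.0446 to 0.40 for Lef1 and -0.0741 to 0.20 for Tcf7 in MSC against ALI. In MSC against Control it ran from -0.61 to 0.17 for Cd28, -0.33 to 0.14 for Cd3g, -0.21 to 0.47 for Cd4 and -0.17 to 0.0707 for Il7r. It ran from -0.0072 to 0.28 for Cd4 and -0.0284 to 0.22 for Il7r in ALI against Control, -0.40 to 0.13 for Cd8a and -0.34 to 0.12 for Tcf7 in tpMSC against ALI, -0.39 to 0.0712 for Tcf7 in tpMSC against MSC and -0.40 to 0.48 for Foxp3 in tpMSC against Control. The cause was not tested.

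The number of genes called over the whole table was also sensitive, and moved by over 1.5 times in 25 of 90 combinations of a setting and a comparison. Counts are lowest for Foxp3, which limits its precision most.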
